A study of Rattus norvegicus with 12 samples.

Results

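The DNA replication and G1/S genes described here were 41 genes that copy DNA, supply its nucleotides or open S phase, of the 17312 gene symbols listed in each library. They were taken by symbol. All 41 passed the filter on low values, an FPKM (fragments per kilobase of transcript, scaled to the size of the library) of at least 1 in at least 3 libraries, which 10518 of the 17312 symbols passed. The 12 RNA sequencing libraries came from cardiomyocytes, the contractile cells of the heart, of Wistar rats. The cells had received a control siRNA or a Wnt5a siRNA, a short RNA that targets the transcript of the secreted ligand Wnt5a, and were either stretched or left without stretch. Each of 4 groups had 3 libraries: control siRNA without stretch (called unstretched control), control siRNA with stretch (stretched control), Wnt5a siRNA without stretch (unstretched Wnt5a siRNA) and both together (stretched Wnt5a siRNA). Every group, the controls included, had thus been given an siRNA, and no untransfected cells were analysed here. The sources used here do not give the age of the rats, the siRNA sequences or the degree of the stretch. Nothing in the labels says that the 3 libraries of a group came from separate cultures, so each p-value rests on a spread between libraries that may be technical.

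DNA is copied once per cell cycle. In G1 the origin recognition complex, Cdc6 and Cdt1 load the MCM helicase onto origins, and at the start of S phase Cdc45 and the GINS complex switch it on. Primase and the DNA polymerases then copy both strands, held to DNA by the sliding clamp Pcna, while ribonucleotide reductase and related enzymes make the nucleotides. Most of these genes are known targets of E2F transcription factors, which the retinoblastoma protein holds back until cyclin D and cyclin E kinases act on it. Cardiomyocytes leave the cell cycle soon after birth, and the other cells of the heart keep the ability to divide.

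The label of the cells was checked against markers. Of 15 cardiomyocyte markers, 14 were listed and all 14 were detected, with a summed FPKM of 24784 to 52486 over the libraries. Markers of other cells were present in every group: the summed FPKM of 16 fibroblast markers was 5780.1 to 13276, that of 13 smooth muscle and pericyte markers 3470 to 7441, that of 16 macrophage and leukocyte markers 164 to 603 and that of 12 endothelial markers 113 to 210. The fibroblast collagen gene Col1a2 was listed at 0 in all 12 libraries, while Col1a1 had a mean of 1609 FPKM in unstretched control. In bulk libraries such as these, fewer cells of a type and less RNA per cell cannot be told apart. The targeted Wnt5a measured 12.3, 10.4 and 11.6 FPKM in unstretched control and 6.15, 4.60 and 6.81 in unstretched Wnt5a siRNA, without overlap. With stretch it measured 6.52, 5.66 and 8.22 with control siRNA and 6.22, 5.88 and 5.56 with Wnt5a siRNA, and these libraries overlapped. Stretched control 3 stood apart from the other libraries of its group on the second principal component, at -3.99 against 25.15 and 24.76 (22.9% of the variance). It had the highest level of its group for 30 of the 41 genes, and the counts and changes that it moves most are given with and without it. The depth of the libraries is unknown, as the files list no counts.

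Without stretch, most of the 41 genes were higher with Wnt5a siRNA than with control siRNA. The test called 37 of the 41 genes higher and none lower, where 14.6% of all genes tested were called higher and 13.9% lower. A gene is called here when its p-value from limma, adjusted over all 10518 genes by Benjamini and Hochberg, is under 0.05. The median change of the 41 genes was 0.59 on the log2(FPKM + 1) scale, and that of all genes tested was 0.00. In each of these 37 genes every Wnt5a siRNA library lay above every control library, a separation seen in 24.7% of all genes. Summed over the 41 genes, the level rose from 508.1 to 548 FPKM in the control libraries to 755.7 to 858.2 FPKM in the Wnt5a siRNA libraries. The genes not called were Orc6, Cdc6, Gins2 and Pola2. Of the 37 calls, 27 held under every alternative analysis other than a minimum fold change. That rule asked for a change of at least 1.5-fold in FPKM + 1, and 21 of the 37 passed it, where 4.16% of all genes were called higher.

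With stretch, the siRNA difference had the same direction in most of these genes and was smaller. The test called 20 of the 41 higher with Wnt5a siRNA and none lower, against 13.2% higher and 14.2% lower among all genes. The median change was 0.29 for the 41 genes and 0.00 for all genes. Every Wnt5a siRNA library lay above every control library in 23 of the 41, against 18.6% of all genes. For 37 of the 41 genes the change with Wnt5a siRNA was smaller with stretch than without, and 19 were called higher in both settings. The count of 20 rests on few libraries, and the share of all genes called higher fell with it. It was 7 when stretched control 1 was left out (4.9% of all genes) and 6 when stretched control 2 was (7.48%). Without stretched Wnt5a siRNA 1 it was 7 (7.63%), and without stretched Wnt5a siRNA 3 it was 7 (5.68%). Without stretched control 3, the library that stood apart, 23 were called higher and 1, Gins2, was called lower. Of all genes, 21.8% were called higher and 22.6% lower in that fit. Fitted on the 6 stretched libraries alone, 6 were called higher, where 5.51% of all genes were. The 5 genes called under every alternative other than the minimum fold change were Rfc2, Rfc3, Pola2, Tyms and Dut.

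Stretch with control siRNA moved fewer of the genes, and the split of the calls depends on the scale. The test called 10 of the 41 higher and 2 lower, where 27.5% of all genes were called higher and 26.8% lower. The share called higher is thus near that of all genes, and the median changes were 0.16 for the 41 and 0.01 for all genes tested. The genes called higher were Orc6, Mcm3, Mcm7, Gins4, Pcna, Rfc5, Prim1, Rpa2, Fen1 and Ccne1, and the genes called lower were Pola2 and Dut. After scaling every library to the same summed level, as in TPM, 3 were called higher and 5 lower, where 13.8% of all genes were called higher and 42.7% lower on that scale. The medians there were -0.05 for the 41 and -0.19 for all genes. The summed FPKM of all genes was 676014 to 709021 in stretched control and 588509 to 598628 in unstretched control. Without stretched control 3, 8 were called higher and 4 lower, where 29.2% and 28.1% of all genes were. Without unstretched control 3, 6 were called higher and 2 lower, where 23.2% and 22.7% of all genes were. Rfc5, Prim1, Pola2 and Dut kept their calls under every alternative other than the minimum fold change.

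Stretch with Wnt5a siRNA lowered 5 of the genes and raised none, against 7.59% lower and 8.44% higher among all genes. The 5 were Cdc45, Lig1, Rrm2, Dut and Uhrf1, and the medians were -0.19 for the 41 genes and -0.01 for all genes. The number called lower was 2 without unstretched Wnt5a siRNA 1 or 2 (3.92% and 5.34% of all genes) and 8 without stretched control 2 (8.12%). It was 11 without stretched control 3 (12.3%), 2 without stretched Wnt5a siRNA 1 (3.38%) and 1 without stretched Wnt5a siRNA 2 (4.69%). With TPM scaling 15 were called lower, where 16.9% of all genes were, with a median of -0.31 for the 41 and -0.12 for all genes. Lig1 alone kept its call under every alternative other than the minimum fold change.

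The difference between the changes with stretch under the 2 siRNAs, the interaction, was called for 12 of the 41. It was negative for 11 and positive for Pola2, where 12.1% of all genes were called negative and 11.7% positive. A negative value means that stretch raised the gene less, or lowered it more, with Wnt5a siRNA than with control siRNA. The median was -0.35 for the 41 genes and 0.00 for all genes. The 12 calls fell to 6 without unstretched control 3, 7 without unstretched Wnt5a siRNA 1, 6 without unstretched Wnt5a siRNA 2 and 6 without stretched Wnt5a siRNA 2, and they were 13 without stretched control 3. In the same order, 8.1%, 8.46%, 8.52%, 10.5% and 18.1% of all genes were called negative, and 7.23%, 7.84%, 7.79%, 9.69% and 16.5% positive. With TPM scaling 6 were called, where 7.75% of all genes were called negative and 15.3% positive. Mcm3, Rfc5, Prim1, Rpa2, Uhrf1 and Pola2 were called under every alternative, the minimum fold change aside. These 5 comparisons share groups, so their counts are not independent of each other: both comparisons on unstretched control use the same 3 libraries.

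**Figure D1:**
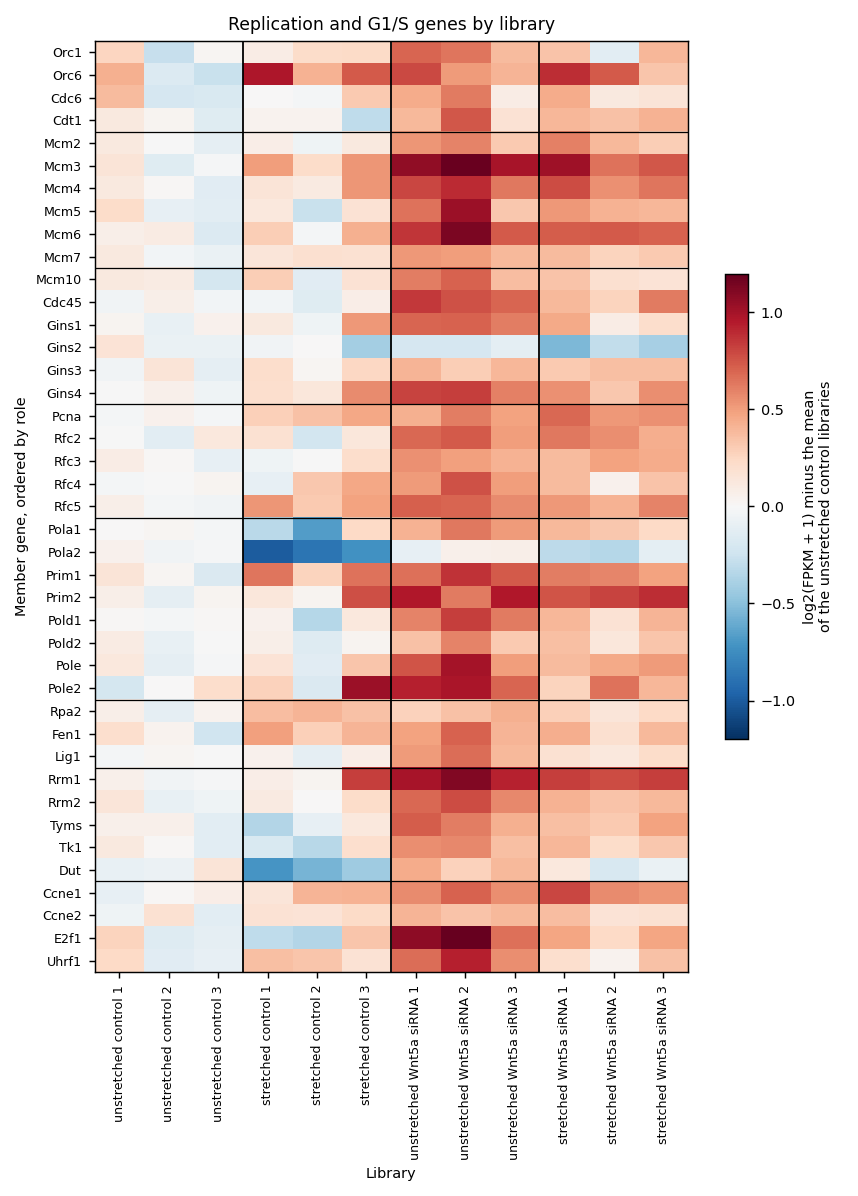
Each column is a library and each row a gene, ordered by role; the colour is log2(FPKM + 1) minus the mean of the 3 unstretched control libraries. The unstretched Wnt5a siRNA columns are higher for all but a few rows, stretched control 3 is higher than the other stretched control columns for most rows, and Pola2 and Dut are lowest in the stretched control columns.

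The promoters of the genes that moved together were searched for E2F words, since E2F binding is the textbook route to their expression. The words were TTTCCCGC or TTTCGCGC or TTTGCCGC or TTTGGCGC, on either strand, in the 250 bases before to 50 bases after each gene's start in RefSeq's rat assembly GRCr8, which is not the build of the expression files. A gene with several listed starts counted once if any start matched. Of 34 genes with an entry, 16 (47.1%) held a word. It was present in 341 of 8043 tested genes with an entry (4.2%), and in 716 of 33469 promoters in the table (2.1%). All 16 genes with a word were called higher with Wnt5a siRNA without stretch, as were 15 of the 18 genes without a word. The 3 uncalled genes with an entry, Orc6, Pola2 and Gins2, held none. A match is a run of letters and not a shown binding site, and no match says only that these words are absent from this window.

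Promoters show how the words sit near the start sites. They run 5′ to 3′ on the gene's own strand and ending at the base before the start unless said otherwise, with the matched word in capitals. Mcm2, Mcm5, Mcm7, Tyms, Gins1 and Gins3 each hold at least 1 word in the bases shown. In Mcm2 and in Gins1 a word and its reverse complement overlap, so that the capitals read the same on either strand. The Uhrf1 stretch starts 120 bases before the third listed start. Pola2 and Gins2 are shown because they did not follow the others, and hold no capitals.
Mcm2 (chr4:122918095-122918154, minus strand): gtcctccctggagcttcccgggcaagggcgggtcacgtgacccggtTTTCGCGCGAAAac
Mcm5 (chr19:13488753-13488812, plus strand): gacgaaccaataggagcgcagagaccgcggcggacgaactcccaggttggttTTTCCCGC
Mcm7 (chr12:22163179-22163258, minus strand): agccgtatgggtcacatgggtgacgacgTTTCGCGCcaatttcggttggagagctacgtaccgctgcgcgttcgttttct
Tyms (chr9:120776084-120776143, minus strand): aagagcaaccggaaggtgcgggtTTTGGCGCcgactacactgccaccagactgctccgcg
Gins1 (chr3:160184860-160184919, plus strand): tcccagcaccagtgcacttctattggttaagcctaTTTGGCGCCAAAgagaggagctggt
Gins3 (chr19:9434680-9434739, minus strand): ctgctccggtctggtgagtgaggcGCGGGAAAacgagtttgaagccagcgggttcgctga
Uhrf1 (chr9:1223066-1223185, plus strand): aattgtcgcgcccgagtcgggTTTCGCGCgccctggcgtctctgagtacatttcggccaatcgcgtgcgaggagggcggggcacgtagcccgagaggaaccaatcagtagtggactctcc
Pola2 (chr1:212680543-212680602, minus strand): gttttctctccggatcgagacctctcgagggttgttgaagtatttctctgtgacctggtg
Gins2 (chr19:65548053-65548112, minus strand): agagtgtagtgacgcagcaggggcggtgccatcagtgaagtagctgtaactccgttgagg

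Other promoter words were counted in the same windows. The CHR word TTTGAA, the element through which mitotic genes are repressed, was present in 4 of 34 replication genes (11.8%), in 27 of 36 mitosis genes (75.0%) and in 11.6% of tested genes. The E2F words were present in 1 of the 36 mitosis genes (2.8%). CCAAT was present in 58.8% of the replication genes and 77.8% of the mitosis genes, against 38.4% of tested genes, and the GC box GGGCGG in 67.6% of the replication genes against 64.7% of tested genes. These shares are descriptions with no test, and 7 of the 41 genes had no entry: Orc1, Cdc6, Mcm4, Gins4, Rrm2, Ccne2 and E2f1.

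Origin recognition and licensing genes showed the weakest response of the 8 roles to Wnt5a siRNA without stretch, by number called: 2 of 4 were higher, Orc1 and Cdt1. Orc1, the largest subunit of the origin recognition complex, measured 2.11, 1.16 and 1.64 FPKM in unstretched control and 3.23, 3.06 and 2.40 in unstretched Wnt5a siRNA. With stretch it measured 1.78, 2.03 and 2.06 with control siRNA and 2.30, 1.38 and 2.43 with Wnt5a siRNA. The 3 unstretched Wnt5a siRNA libraries were the only group that did not overlap with unstretched control, and the change was 0.57 ± 0.17 (SE, adjusted p = 0.025). That call was lost without unstretched control 2 or 3 or unstretched Wnt5a siRNA 1 or 2, with an adjusted p of up to 0.103. Cdt1, the loading factor that geminin inhibits, rose with Wnt5a siRNA in both settings. It measured 4.50, 4.19 and 3.61 FPKM in unstretched control and 5.67, 7.53 and 4.72 with Wnt5a siRNA, a change of 0.43 ± 0.15 (SE, adjusted p = 0.042). With stretch the values were 4.24, 4.25 and 3.13 with control siRNA and 5.71, 5.50 and 5.80 with Wnt5a siRNA, a change of 0.46 ± 0.15 (SE, adjusted p = 0.0353). The groups did not overlap in either setting, but these calls held in 10 and 12 of 21 alternatives, the minimum fold change not counted here or for the genes that follow.

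Orc6, a small subunit of the origin recognition complex, was the gene whose stretch response stood out in this role. It measured 7.75, 4.81 and 4.40 FPKM in unstretched control and 11.7, 7.67 and 9.82 in stretched control, a change of 0.71 ± 0.20 (SE, adjusted p = 0.0107). The second stretched library lay just under the first unstretched one, so the groups overlapped, and the call was lost without unstretched control 3 (adjusted p = 0.0512). With Wnt5a siRNA, Orc6 measured 10.2, 8.25 and 7.61 without stretch and 11.0, 9.83 and 7.20 with stretch. Its change with the siRNA without stretch, 0.57 ± 0.20 (SE, adjusted p = 0.0529), just missed the threshold. Cdc6, the ATPase that brings MCM to origins, was called in no comparison and ranged over 3.02 to 6.11 FPKM.

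All 6 MCM helicase genes rose with Wnt5a siRNA without stretch, and 4 rose with stretch. Mcm2 to Mcm7 form the ring that unwinds DNA. Mcm3 measured 10.7, 8.59 and 9.50 FPKM in unstretched control and 21.0, 23.1 and 19.9 in unstretched Wnt5a siRNA, a ratio of means of 2.22. Its change of 1.08 ± 0.12 (SE, adjusted p = 3.4e-04) was the largest of the 41 genes in this comparison. In the stretched groups it measured 13.9, 11.3 and 14.2 with control siRNA and 20.5, 15.6 and 16.7 with Wnt5a siRNA. The 4 groups thus stood in the order unstretched control, stretched control, stretched Wnt5a siRNA and unstretched Wnt5a siRNA, with overlap only between the last 2. Stretch raised Mcm3 with control siRNA by 0.42 ± 0.12 (SE, adjusted p = 0.0105), a call lost under TPM scaling (adjusted p = 0.145). The interaction was -0.69 ± 0.17 (SE, adjusted p = 0.0135).

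Mcm6 followed the same order of means at a similar level. It measured 14.1, 14.4 and 11.8 FPKM in unstretched control and 25.0, 30.4 and 22.9 in unstretched Wnt5a siRNA, a change of 0.91 ± 0.12 (SE, adjusted p = 7.4e-04). With stretch the values were 16.6, 13.1 and 18.3 with control siRNA and 22.8, 23.0 and 22.4 with Wnt5a siRNA, a change of 0.49 ± 0.12 (SE, adjusted p = 0.0145). The stretched Wnt5a siRNA libraries lay close together and above all control libraries. Mcm7 was the most abundant MCM gene in unstretched control after length scaling, and moved the least: 26.6, 23.9 and 23.2 FPKM there and 35.6, 35.2 and 32.5 with Wnt5a siRNA, a change of 0.47 ± 0.07 (SE, adjusted p = 9.6e-04). In stretched control it measured 27.1, 28.1 and 28.0 and in stretched Wnt5a siRNA 32.2, 29.7 and 30.8. Its rise with stretch under control siRNA, 0.17 ± 0.07 (SE, adjusted p = 0.0494), was at the threshold, held in 5 of 21 alternatives and had the opposite sign under TPM scaling (-0.05). Mcm2, Mcm4 and Mcm5 were higher without stretch by 0.48, 0.78 and 0.67. With stretch Mcm2 and Mcm4 rose by 0.38 and 0.40, while Mcm5, at 0.43 ± 0.17 (SE, adjusted p = 0.0698), did not pass the test though its libraries did not overlap.

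**Figure D2:**
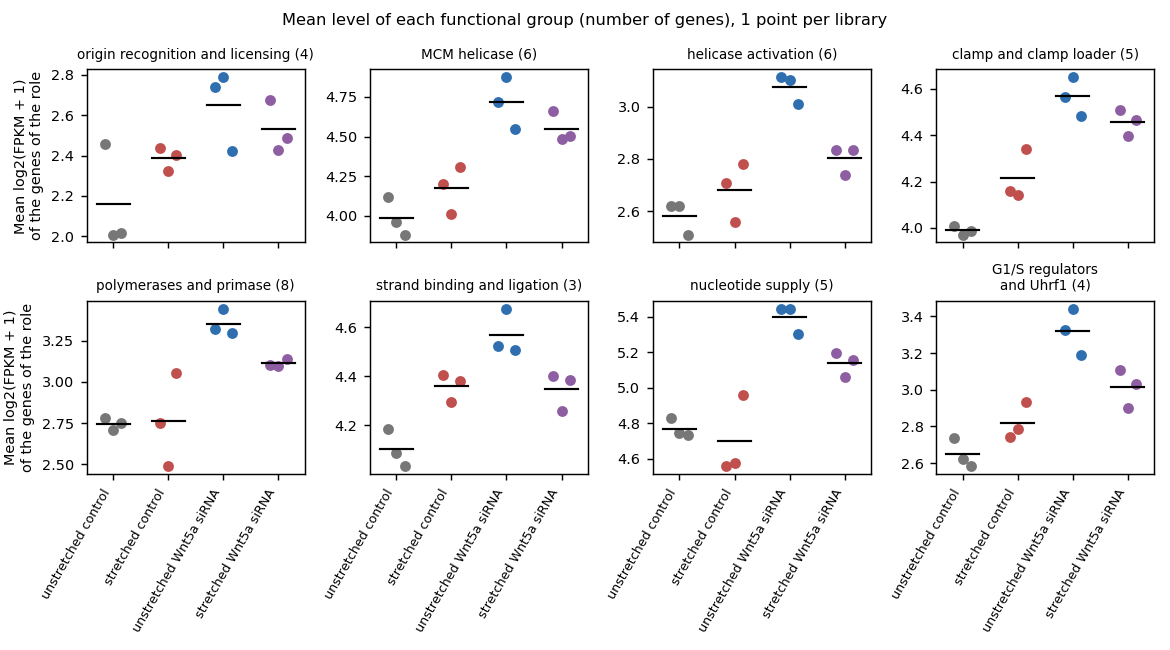
Each panel is a role, with its number of genes; the vertical axis is the mean log2(FPKM + 1) of its genes and each point is a library of the 4 groups. The unstretched Wnt5a siRNA points are the highest or share the top in each panel. Stretched control has the widest spread in some panels and not in others.

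Among the genes that activate the helicase, 5 of 6 rose with Wnt5a siRNA without stretch and Gins2 did not. Cdc45, which joins MCM and GINS in the active helicase, measured 4.45, 4.89 and 4.46 FPKM in unstretched control and 9.11, 8.49 and 8.09 in unstretched Wnt5a siRNA, a change of 0.77 ± 0.11 (SE, adjusted p = 7.8e-04). It measured 4.46, 4.07 and 4.92 in stretched control and 6.32, 5.72 and 7.63 in stretched Wnt5a siRNA, a change of 0.46 ± 0.11 (SE, adjusted p = 0.0106). The control libraries were alike with and without stretch, and the Wnt5a siRNA libraries were lower with stretch than without, a change of -0.35 ± 0.11 (SE, adjusted p = 0.0452). That decrease was called in 8 of 21 alternatives, and was lost with the replicate number as a block (adjusted p = 0.0564). Gins4 measured 8.68, 9.12 and 8.40 FPKM in unstretched control and 16.1, 16.3 and 13.8 in unstretched Wnt5a siRNA, a change of 0.75 ± 0.12 (SE, adjusted p = 0.0012). The stretched groups, 10.2, 9.70 and 13.4 with control siRNA and 13.2, 11.2 and 13.3 with Wnt5a siRNA, overlapped, mainly through stretched control 3. The change of Gins4 with the siRNA with stretch was 0.17 ± 0.12 (SE, adjusted p = 0.287), and 0.30 (adjusted p = 0.0243) without that library. Gins1 behaved alike: 4.50, 4.07 and 4.59 FPKM in unstretched control, 7.74, 7.78 and 7.21 in unstretched Wnt5a siRNA, a change of 0.67 ± 0.14 (SE, adjusted p = 0.005). Stretched control 3, at 6.73 FPKM, lay above all stretched Wnt5a siRNA libraries (6.39, 4.71 and 5.23), and the other stretched control libraries measured 4.82 and 4.19.

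The GINS complex is made of Gins1, Gins2, Gins3 and Gins4, and its genes did not move together. Gins2 measured 12.9, 10.8 and 10.7 FPKM in unstretched control and 9.82, 9.85 and 10.5 in unstretched Wnt5a siRNA, the one gene of the 41 whose Wnt5a siRNA libraries were all below the controls. It measured 11.1, 11.5 and 8.36 in stretched control and 7.57, 9.12 and 8.43 in stretched Wnt5a siRNA. Neither siRNA change passed the test: -0.17 ± 0.12 (SE, adjusted p = 0.296) without stretch and -0.26 ± 0.12 (SE, adjusted p = 0.111) with stretch. Without stretched control 3, Gins2 was called lower with Wnt5a siRNA with stretch. Gins3 and Mcm10, a factor that helps to switch on the helicase, were higher with Wnt5a siRNA without stretch by 0.37 and 0.56. Both were low, under 5 FPKM in every library.

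Pcna, the sliding clamp, was the most abundant of the 41 genes per length in every group, by the group mean of FPKM. It measured 57.1, 60.3 and 57.2 FPKM in unstretched control, 78.7, 89.5 and 81.9 in unstretched Wnt5a siRNA, 71.0, 74.4 and 80.9 in stretched control and 94.5, 83.8 and 85.4 in stretched Wnt5a siRNA. All libraries of the other 3 groups lay above all unstretched control libraries. The change with Wnt5a siRNA was 0.51 ± 0.07 (SE, adjusted p = 8.7e-04) without stretch and 0.22 ± 0.07 (SE, adjusted p = 0.0425) with stretch, and the change with stretch under control siRNA was 0.37 ± 0.07 (SE, adjusted p = 0.001). The stretch call was lost under TPM scaling (adjusted p = 0.117), and the siRNA call with stretch held in 9 of 21 alternatives.

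The clamp loader, made of Rfc subunits, opens Pcna around DNA. Rfc5 rose with stretch as well as with Wnt5a siRNA: it measured 7.91, 7.33 and 7.23 FPKM in unstretched control, 11.3, 9.53 and 10.9 in stretched control and 12.9, 12.7 and 11.6 in unstretched Wnt5a siRNA. The changes were 0.44 ± 0.09 (SE, adjusted p = 0.001) with stretch and 0.66 ± 0.09 (SE, adjusted p = 6.7e-04) with the siRNA. With both it measured 11.1, 10.3 and 11.9, within the range of the other 2 treated groups, and the interaction was -0.59 ± 0.12 (SE, adjusted p = 0.0064). Rfc3 responded to the siRNA and showed no detectable stretch response: 14.2, 13.4 and 12.4 FPKM in unstretched control, 12.8, 13.2 and 15.6 in stretched control, 19.9, 19.1 and 18.1 in unstretched Wnt5a siRNA and 17.6, 19.0 and 18.5 in stretched Wnt5a siRNA. Its siRNA changes were 0.48 ± 0.09 (SE, adjusted p = 0.0022) without and 0.39 ± 0.09 (SE, adjusted p = 0.0083) with stretch. The 95% interval of its change with stretch under control siRNA ran from -0.14 to 0.23. Rfc2 was higher with the siRNA in both settings, by 0.64 and 0.51. Rfc4 was higher without stretch alone, by 0.59, and changed by 0.03 ± 0.14 (SE, adjusted p = 0.895) with stretch.

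**Figure D3:**
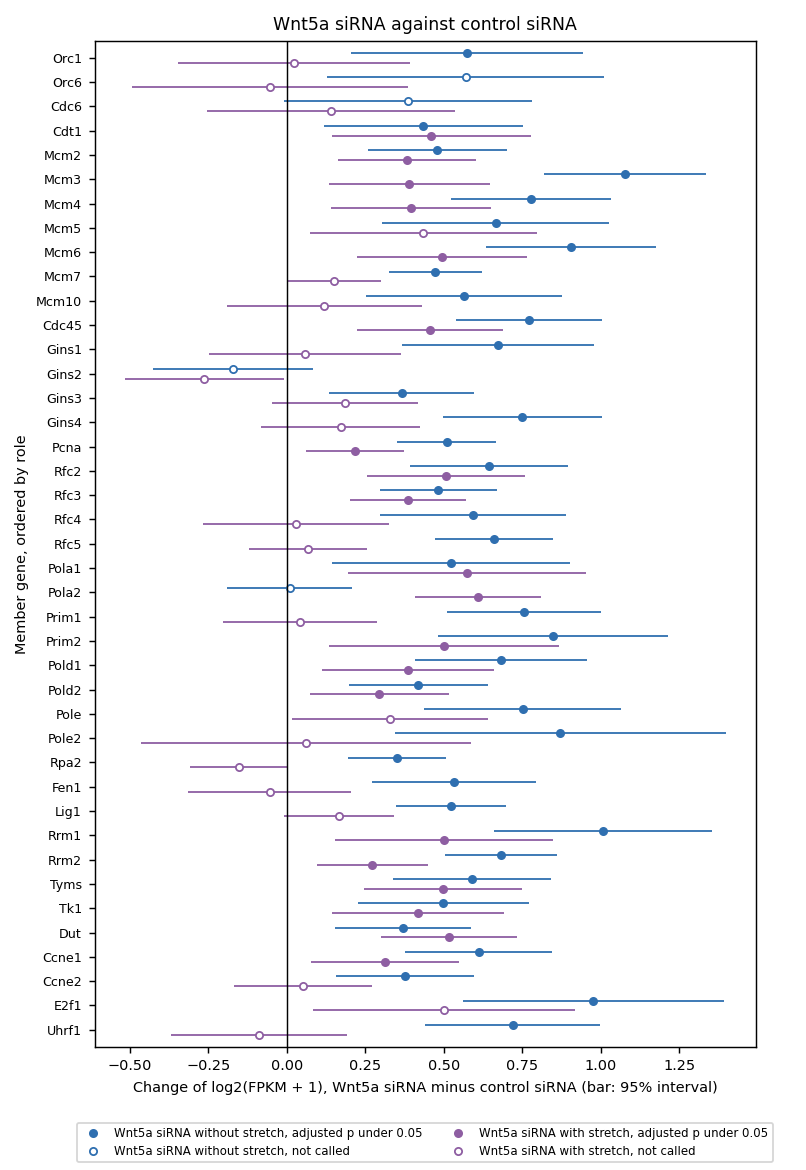
The change with Wnt5a siRNA against control siRNA in log2(FPKM + 1) for each gene, without stretch and with stretch; bars are 95% intervals and filled points passed the adjusted threshold. Most filled points without stretch lie between 0.35 and 1.08, the points with stretch lie nearer to 0, and Pola2 is the gene filled with stretch alone.

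Polymerase and primase genes rose with Wnt5a siRNA in 7 of 8 cases without stretch and in 5 of 8 with stretch. Pola2, the regulatory subunit of polymerase alpha, was the exception. It measured 15.6, 14.6 and 14.9 FPKM in unstretched control and 13.9, 15.6 and 15.8 in unstretched Wnt5a siRNA, which overlapped, a change of 0.01 ± 0.09 (SE, adjusted p = 0.956) with a 95% interval of -0.19 to 0.21. Stretch lowered it to 7.01, 7.73 and 8.65 with control siRNA, 51.9% of the unstretched level, a change of -0.87 ± 0.09 (SE, adjusted p = 1.3e-05). In stretched Wnt5a siRNA it measured 11.8, 11.6 and 13.7, above all stretched control libraries and below all unstretched ones of either siRNA. The change with the siRNA with stretch was 0.61 ± 0.09 (SE, adjusted p = 0.0019), and the interaction, 0.60 ± 0.13 (SE, adjusted p = 0.008), was the only positive one called. Among the 41 genes, Pola2 alone was called with the siRNA with stretch and not without it. Its partner Pola1, the catalytic subunit, rose by 0.52 without stretch and 0.57 with stretch, with stretched control libraries at 3.21, 2.31 and 5.21 FPKM. These calls of Pola1 held in 10 and 13 of 21 alternatives.

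Primase makes the RNA primers that start each new strand. Its small subunit Prim1 measured 16.1, 14.6 and 12.6 FPKM in unstretched control and 23.0, 17.6 and 23.2 in stretched control, a change of 0.52 ± 0.11 (SE, adjusted p = 0.002). In unstretched Wnt5a siRNA it measured 23.4, 27.1 and 24.6, a change of 0.76 ± 0.11 (SE, adjusted p = 0.001), and in stretched Wnt5a siRNA 22.5, 22.2 and 20.6. The 3 treated groups lay above unstretched control with no overlap, and the interaction was -0.71 ± 0.16 (SE, adjusted p = 0.0091). Its large subunit Prim2 had no call with stretch under control siRNA (0.31 ± 0.17 (SE, adjusted p = 0.133)), and a rise of 0.85 ± 0.17 (SE, adjusted p = 0.0039) with the siRNA without stretch. In stretched control Prim2 measured 3.92, 3.58 and 6.67 FPKM, so that the mean rests on the third library. With stretch the siRNA change of Prim2 was 0.50 ± 0.17 (SE, adjusted p = 0.0445), and it held in 8 of 21 alternatives; without stretched control 3 it was 0.73 (adjusted p = 5.3e-04).

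Pold1 and Pole are the catalytic subunits of the lagging and leading strand polymerases. Pold1 measured 4.95, 4.82 and 4.96 FPKM in unstretched control and 7.94, 9.50 and 8.08 in unstretched Wnt5a siRNA, a change of 0.68 ± 0.13 (SE, adjusted p = 0.0027). With stretch it measured 5.12, 3.65 and 5.43 with control siRNA and 6.81, 5.67 and 6.84 with Wnt5a siRNA, a change of 0.39 ± 0.13 (SE, adjusted p = 0.04) that held in 9 of 21 alternatives. Control libraries were near 5 FPKM with and without stretch, other than stretched control 2. Pold2, its accessory subunit, rose by 0.42 and 0.29, and the second of these calls, at an adjusted p of 0.0495, held in 6 of 21 alternatives. Pole rose by 0.75 without stretch and changed by 0.33 ± 0.14 (SE, adjusted p = 0.107) with stretch. Pole2, which supports Pole, was the lowest of the 8 and rose by 0.87 ± 0.24 (SE, adjusted p = 0.019) without stretch. Its stretched control libraries, at 2.13, 1.30 and 4.27 FPKM, spanned all stretched Wnt5a siRNA libraries (2.11, 3.05 and 2.41).

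Of the 3 strand binding and ligation genes, 3 were called higher with Wnt5a siRNA without stretch and 0 with stretch, where limma's 95% intervals of all 3 included 0. All 3 had a negative interaction that passed the test. Rpa2, a subunit of the protein that coats single-stranded DNA, measured 20.7, 18.3 and 20.3 FPKM in unstretched control and 25.9, 26.5 and 25.5 in stretched control, a change of 0.38 ± 0.07 (SE, adjusted p = 8.2e-04). It measured 24.1, 25.5 and 26.9 in unstretched Wnt5a siRNA, a change of 0.35 ± 0.07 (SE, adjusted p = 0.0044). In stretched Wnt5a siRNA it measured 24.3, 21.9 and 23.6, below all stretched control libraries, though this difference, -0.15 ± 0.07 (SE, adjusted p = 0.128), did not pass the test. Its interaction was -0.50 ± 0.10 (SE, adjusted p = 0.0057). The call of Rpa2 with stretch under control siRNA was lost under TPM scaling (adjusted p = 0.0962). Fen1, the nuclease that trims Okazaki fragments, measured 11.6, 10.3 and 8.33 FPKM in unstretched control, 14.4, 12.4 and 13.6 in stretched control, 14.4, 17.0 and 13.6 in unstretched Wnt5a siRNA and 13.9, 11.6 and 13.4 in stretched Wnt5a siRNA. Its changes were 0.40 ± 0.12 (SE, adjusted p = 0.0145) with stretch and 0.53 ± 0.12 (SE, adjusted p = 0.0073) with the siRNA. The interaction of Fen1 was -0.59 ± 0.17 (SE, adjusted p = 0.0264). Its stretch call held in 18 of 21 alternatives and was lost under TPM scaling, among others.

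Lig1, the ligase that joins Okazaki fragments, differed from Fen1 in having no call with stretch under control siRNA. It measured 20.8, 21.5 and 21.1 FPKM in unstretched control and 21.9, 19.5 and 22.4 in stretched control, a change of 0.01 ± 0.08 (SE, adjusted p = 0.944). In unstretched Wnt5a siRNA it measured 30.6, 34.2 and 27.9 and in stretched Wnt5a siRNA 24.0, 23.2 and 24.7. The siRNA raised it by 0.52 ± 0.08 (SE, adjusted p = 0.0012) without stretch. Within the Wnt5a siRNA groups it was lower with stretch than without, a change of -0.35 ± 0.08 (SE, adjusted p = 0.0126). The interaction of Lig1, -0.36 ± 0.11 (SE, adjusted p = 0.0408), held in 8 of 20 alternatives.

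All 5 nucleotide supply genes were called higher with Wnt5a siRNA both without and with stretch, the one role for which this was so. With stretch the calls of Rrm1, Rrm2 and Tk1 held in 13, 16 and 16 of 21 alternatives. Those of Tyms and Dut held in all 21. Rrm1 and Rrm2 are the large and small subunits of ribonucleotide reductase. Rrm2 measured 33.1, 28.1 and 28.8 FPKM in unstretched control and 48.9, 52.2 and 45.1 in unstretched Wnt5a siRNA, a change of 0.68 ± 0.08 (SE, adjusted p = 4.1e-04). It measured 32.4, 30.0 and 35.0 in stretched control and 40.2, 38.3 and 39.6 in stretched Wnt5a siRNA, a change of 0.27 ± 0.08 (SE, adjusted p = 0.029). With Wnt5a siRNA it was lower with stretch, a change of -0.30 ± 0.08 (SE, adjusted p = 0.0278), and the interaction was -0.41 ± 0.12 (SE, adjusted p = 0.0246). Rrm1 had one of the largest changes without stretch: 34.0, 31.4 and 32.1 FPKM with control siRNA and 65.3, 71.5 and 62.3 with Wnt5a siRNA, a change of 1.01 ± 0.16 (SE, adjusted p = 0.0013). In stretched control it measured 34.3, 33.2 and 58.6, so that the third library lay at the level of stretched Wnt5a siRNA (58.6, 56.6 and 58.5) and the others at that of unstretched control. Its change with the siRNA with stretch was 0.50 ± 0.16 (SE, adjusted p = 0.036), and 0.76 (adjusted p = 1.1e-05) without stretched control 3.

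Dut, the enzyme that removes dUTP, was lowered by stretch in the cells with either siRNA. It measured 51.7, 52.3 and 61.4 FPKM in unstretched control and 33.4, 37.1 and 40.6 in stretched control, a change of -0.56 ± 0.10 (SE, adjusted p = 5.0e-04). With Wnt5a siRNA it measured 75.1, 66.9 and 72.1 without and 60.2, 48.1 and 52.0 with stretch, a change of -0.42 ± 0.10 (SE, adjusted p = 0.0149). At each stretch setting the Wnt5a siRNA libraries lay above the control libraries with no overlap, by 0.37 ± 0.10 (SE, adjusted p = 0.0166) without and 0.52 ± 0.10 (SE, adjusted p = 0.005) with stretch. Tyms and Tk1, which make thymidylate by synthesis and by salvage, rose without stretch by 0.59 and 0.50. With stretch they rose by 0.50 and 0.42, and neither was called in the 2 comparisons of stretch with no stretch.

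All 4 G1/S regulators and maintenance methylation genes rose with Wnt5a siRNA without stretch, and 1 rose with stretch. E2f1, an activating E2F factor, measured 6.28, 4.42 and 4.60 FPKM in unstretched control and 11.7, 12.8 and 8.57 in unstretched Wnt5a siRNA, a ratio of means of 2.17 and a change of 0.98 ± 0.19 (SE, adjusted p = 0.0035). With stretch it measured 3.90, 3.73 and 6.59 with control siRNA and 7.38, 6.11 and 7.36 with Wnt5a siRNA. These groups overlapped through stretched control 3, and the change, 0.50 ± 0.19 (SE, adjusted p = 0.0704), did not pass the test. Without that library the change of E2f1 was 0.72 (adjusted p = 0.0042). Ccne1, the cyclin that drives entry into S phase, rose in 3 comparisons. It measured 4.33, 4.74 and 5.02 FPKM in unstretched control, 5.30, 6.54 and 6.59 in stretched control, 7.45, 8.32 and 7.35 in unstretched Wnt5a siRNA and 8.94, 7.44 and 7.24 in stretched Wnt5a siRNA. Its changes were 0.32 ± 0.11 (SE, adjusted p = 0.0236) with stretch, 0.61 ± 0.11 (SE, adjusted p = 0.0022) with the siRNA and 0.31 ± 0.11 (SE, adjusted p = 0.0487) with the siRNA with stretch, the last held in 5 of 21 alternatives. The stretch call of Ccne1 held in 15 of 21 alternatives and was lost under TPM scaling, among others. Ccne2 rose without stretch by 0.38.

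Uhrf1, which guides the maintenance of DNA methylation behind the fork, had the most negative interaction of those called, -0.81 ± 0.18 (SE, adjusted p = 0.0092). It measured 8.95, 6.67 and 6.87 FPKM in unstretched control and 12.4, 15.1 and 11.4 in unstretched Wnt5a siRNA, a change of 0.72 ± 0.13 (SE, adjusted p = 0.0023). In stretched control it measured 9.81, 9.64 and 8.52 and in stretched Wnt5a siRNA 8.72, 7.71 and 9.75, which overlapped. With Wnt5a siRNA it was lower with stretch, a change of -0.52 ± 0.13 (SE, adjusted p = 0.017), and with control siRNA the change was 0.29 ± 0.13 (SE, adjusted p = 0.0746).

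**Figure D4:**
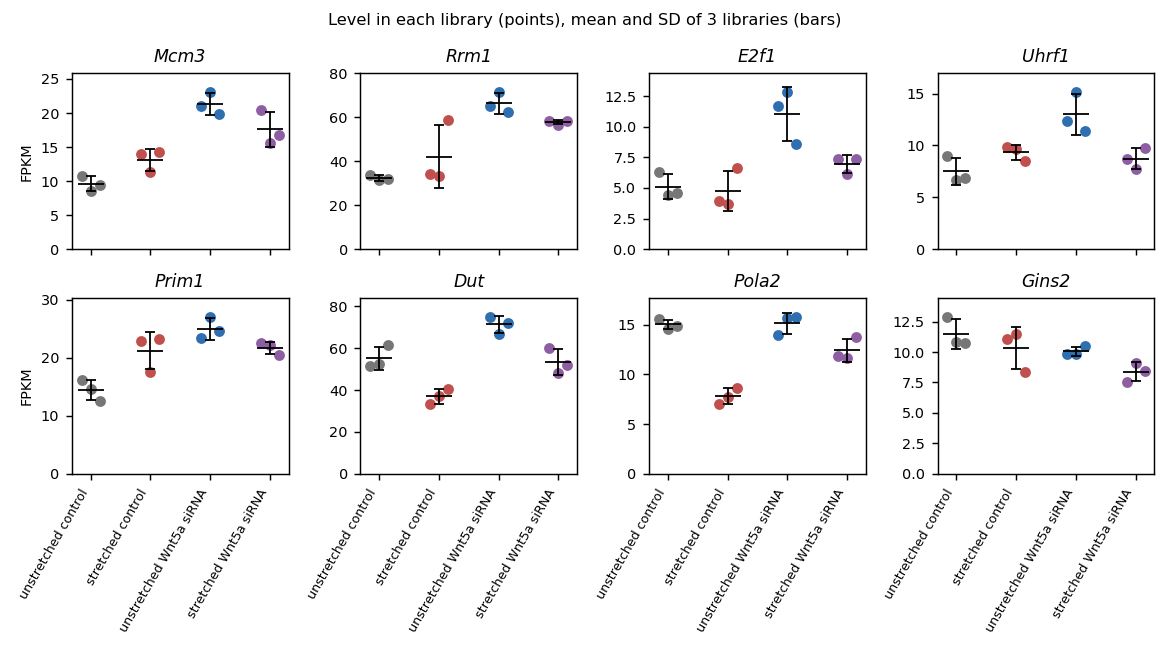
FPKM in each library for 8 genes, with the mean and SD of the 3 libraries of each group; the axes start at 0. Mcm3, Rrm1, E2f1 and Uhrf1 peak in unstretched Wnt5a siRNA, Prim1 is lowest in unstretched control, Dut and Pola2 are lowest in stretched control, and Gins2 has no group above unstretched control.

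Over the 12 libraries most of the 41 genes shared 1 profile. The Pearson correlation of each gene with the mean of the standardised levels of the 41, itself included, was 0.99 for Rrm2, 0.97 for Mcm3, Mcm4 and Mcm6, and 0.75 or more for all but 5 genes. The 5 were Dut at 0.58, Rpa2 at 0.53, Orc6 at 0.52, Pola2 at 0.30 and Gins2 at -0.51. Among tested genes outside the 41, those with the highest correlation to that mean profile included Aldh7a1 (0.971), Tonsl (0.956), Mms22l (0.950), Ddah2 (0.947), Crym (0.946), Ccna2 (0.945) and Clspn (0.943). Tonsl and Mms22l form a complex that acts at stalled forks, Clspn is a checkpoint mediator at forks and Ccna2 is the S phase cyclin. Crym, a thyroid hormone binding protein, measured 11.1 to 13.1 FPKM in unstretched control and 28.0 to 30.5 in unstretched Wnt5a siRNA. Aldh7a1, a dehydrogenase of lysine breakdown, measured 40.4 to 41.9 and 57.1 to 66.6 FPKM in the same groups. These correlations are descriptions over 12 libraries that share their groups and scaling, and have no p-value.

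The rest of the replication machinery moved less uniformly. Of 30 other replication genes tested, 11 were called higher and 1 lower with Wnt5a siRNA without stretch, with a median change of 0.20, and 6 were higher and 6 lower with stretch under control siRNA. Among all genes 14.6% were called higher and 13.9% lower in the first of these comparisons, and 27.5% and 26.8% in the second. Rpa1 and Orc5, partners of Rpa2 and Orc6, were lower with stretch under control siRNA, with changes of -0.55 ± 0.06 (SE, adjusted p = 2.6e-05) for Rpa1 and -0.74 (adjusted p = 1.1e-05) for Orc5, and neither passed the test with Wnt5a siRNA without stretch. With Wnt5a siRNA with stretch 3 of these 30 were higher and 1 lower, and 7 higher and 3 lower without stretched control 3. Of all genes, 13.2% were called higher and 14.2% lower there, and 21.8% and 22.6% without that library. With stretch under Wnt5a siRNA 0 were higher and 5 lower, and the interaction was called positive for 4 and negative for 4. Of all genes, 8.44% were called higher and 7.59% lower in the first of these, and 11.7% positive and 12.1% negative in the second. With TPM scaling the counts higher and lower were 2 and 7 for stretch under control siRNA and 8 and 1 for Wnt5a siRNA with stretch. They were 0 and 10 for stretch under Wnt5a siRNA and 4 and 1 for the interaction. In the same order, 13.8%, 20.8%, 4.77% and 15.3% of all genes were called higher on that scale, and 42.7%, 7.71%, 16.9% and 7.75% lower. Of 19 other nucleotide supply genes, 11 were higher and 1 lower with stretch under control siRNA (6 and 4 with TPM scaling), and 7 were higher and 0 lower with Wnt5a siRNA without stretch. Nme1, a nucleoside diphosphate kinase, and Impdh2, of guanine nucleotide synthesis, rose with stretch by 0.86 and 0.61. Hprt1 was listed at 0 in all libraries.

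Other E2F targets followed the 41 genes without stretch. Of 19 tested genes of chromatin duplication and repair, 16 were called higher and 0 lower with Wnt5a siRNA without stretch, with a median of 0.56, and 3 higher and 0 lower with Wnt5a siRNA with stretch. The count of 3 was 9 without stretched control 3 and 7 with TPM scaling. Of all genes, 14.6% were called higher with Wnt5a siRNA without stretch and 13.2% with stretch. The second share was 21.8% without stretched control 3 and 20.8% with TPM scaling. Chek1, the checkpoint kinase, rose by 0.86 with the siRNA and by 0.41 with stretch (adjusted p = 4.8e-04 and 0.0055). Mitosis genes moved with them: 40 of 42 were called higher and 0 lower with Wnt5a siRNA without stretch, with a median of 0.59, and 11 higher and 0 lower with Wnt5a siRNA with stretch. That count of 11 was 31 without stretched control 3 and 20 with TPM scaling, beside the same shares of all genes. With stretch under control siRNA 8 of the 42 were higher and 0 lower, where 27.5% of all genes were higher and 26.8% lower. These counts were 4 higher and 1 lower without stretched control 3, and 2 higher and 1 lower with TPM scaling. Of all genes, 29.2% were called higher and 28.1% lower in the first of these fits, and 13.8% and 42.7% in the second. Under control siRNA the spindle checkpoint gene Bub3 rose with stretch by 0.33 and the phosphatase gene Cdc25c by 0.65. With Wnt5a siRNA without stretch they rose by 0.25 and 0.72. The summed level of the 42 mitosis genes was 657 FPKM in stretched control 3, against 464 and 432 in the other stretched control libraries.

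Genes that control G1/S moved in both directions. Of 28 tested, 8 were higher and 3 lower with Wnt5a siRNA without stretch, where 14.6% of all genes were higher and 13.9% lower. With stretch under control siRNA 9 were higher and 5 lower, where 27.5% and 26.8% of all genes were. With TPM scaling these were 5 and 8, where 13.8% and 42.7% of all genes were. The 3 lower with Wnt5a siRNA without stretch were the kinase inhibitors Cdkn1a (p21) and Cdkn1c (p57), and the phosphatase gene Cdc25a. Cdkn1a had means of 117 FPKM in unstretched control and 49.0 in unstretched Wnt5a siRNA, a change of -1.23 (adjusted p = 0.0029), and of 121 and 56.5 in the stretched groups, a change of -1.0 (adjusted p = 0.0100). Stretch itself did not pass the test for Cdkn1a with control siRNA (-0.02, adjusted p = 0.935). The cyclin gene Ccnd1 and the inhibitor gene Cdkn2b (p15) rose most with stretch under control siRNA, by 1.87 and 1.95, and the inhibitor gene Cdkn1c fell by 1.47. Cdkn1a, Cdkn1c and Cdc25a are named here after their values were seen.

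**Figure D5:**
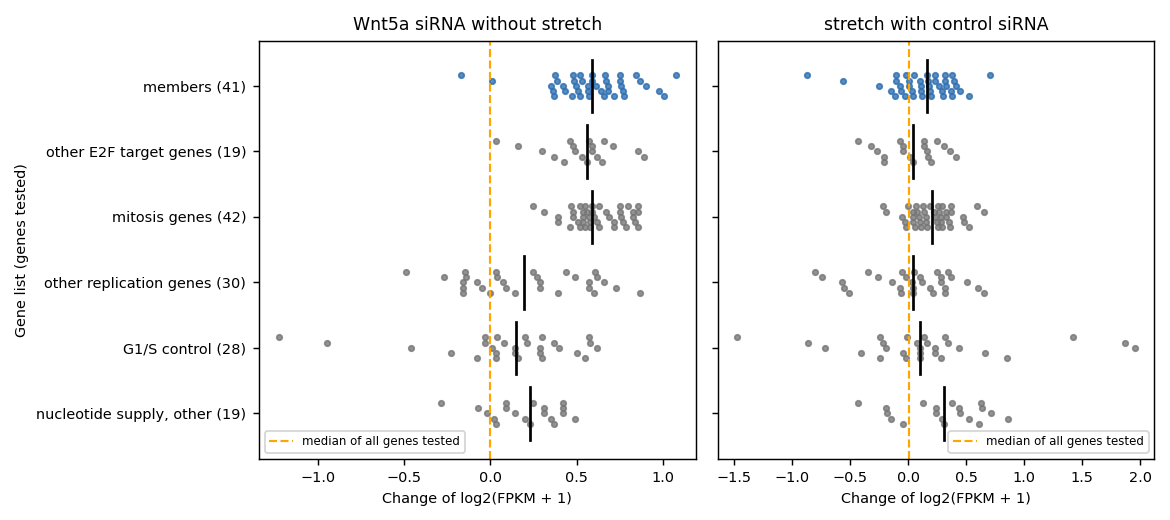
The change in log2(FPKM + 1) of each tested gene (points) for the 41 replication and G1/S genes and 5 related lists, with black bars at the list medians; the left panel is Wnt5a siRNA without stretch and the right panel stretch with control siRNA. The dashed line is the median of all genes tested, which lies at 0.00 and 0.01. On the left the 41 genes, the other E2F targets and the mitosis genes lie to the right of it with medians of 0.59, 0.56 and 0.59. On the right each list has genes on both sides of the line, and the medians of these 3 lists are 0.16, 0.04 and 0.20. Those of the other replication, G1/S control and other nucleotide supply genes are 0.05, 0.10 and 0.31 there. The mitosis genes lie mostly to the right in that panel, with 37 changes positive and 5 negative.

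Cell type markers moved along with these comparisons, and their part in the results was not tested. Among all genes 14.6% were called higher and 13.9% lower with Wnt5a siRNA without stretch. The shares were 13.2% and 14.2% with Wnt5a siRNA with stretch, and 27.5% and 26.8% with stretch under control siRNA. With Wnt5a siRNA without stretch, where 37 of the 41 genes rose, 7 of 15 fibroblast markers were higher and 1 lower, 0 of 15 macrophage and leukocyte markers were higher and 11 lower, and 2 of 14 cardiomyocyte markers were higher and 5 lower. The summed fibroblast markers were 5780.1 to 6306 FPKM in unstretched control and 8194 to 8551 in unstretched Wnt5a siRNA. The summed macrophage markers were 208 to 269 and 164 to 177 FPKM, and the summed cardiomyocyte markers 34900.0 to 37623 and 27525 to 37508 FPKM. With Wnt5a siRNA with stretch, 8 fibroblast markers were higher and 0 lower, and their sum was 7863 to 12203 FPKM in stretched control and 12592 to 13276 in stretched Wnt5a siRNA. Within stretched control, the library with the highest sum of the 41 genes, the third at 639.1 FPKM against 554.7 and 529.3, also had the highest fibroblast sum (12203 against 8038 and 7863), the highest macrophage sum (603 against 361 and 368) and the lowest cardiomyocyte sum (43175 against 51563 and 52486). With stretch under control siRNA, 12 fibroblast markers were higher and 0 lower and 9 macrophage markers higher and 0 lower, in a comparison in which 10 of the 41 genes were higher. With TPM scaling these were 8 higher and 1 lower, and 3 higher and 0 lower, where 13.8% of all genes were higher and 42.7% lower. Of the 14 cardiomyocyte markers 5 were higher and 7 lower there (2 and 8 with TPM scaling), and their sum was higher, at 43175 to 52486 FPKM against 34900.0 to 37623 in unstretched control. There the fibroblast markers Loxl1 and Fap rose by 1.22 and 1.01, the macrophage and leukocyte markers Lyz2 and Cd53 rose by 1.40 and 0.89, and the cardiomyocyte calcium handling genes Atp2a2 and Ryr2, the markers of that list with the smallest adjusted p, changed by -1.10 and -0.99.

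Markers of 5 other cell types gave these counts. With Wnt5a siRNA without stretch, 1 of 11 endothelial markers was higher and 1 lower, 3 of 13 smooth muscle and pericyte markers were higher and 0 lower, and 2 of 6 epicardial and mesothelial markers were higher and 0 lower. None of 5 Schwann and neuronal or 2 erythroid markers was called there. Krt19, an epicardial and mesothelial keratin, had means of 0.503 FPKM in unstretched control and 2.67 in unstretched Wnt5a siRNA. With stretch under control siRNA, 2 of 13 smooth muscle and pericyte markers were higher and 4 lower, with a median of 0.18, and 4 higher and 4 lower without stretched control 3. There 2 endothelial markers were higher and 1 lower, 2 epicardial and mesothelial markers higher and 0 lower, 1 Schwann and neuronal marker higher and 2 lower, and 0 erythroid markers higher and 1 lower. The 2 of each list with the smallest adjusted p, or the 1 called, are given next. The endothelial markers Eng and Esam changed by 0.69 and -0.68, the smooth muscle markers Myh11 and Lmod1 by -1.83 and -1.14, Aldh1a2 and Krt19 by 0.57 and 0.59, Mbp and Tubb3 of the Schwann and neuronal list by -0.81 and 0.93 and the erythroid Hbb by -1.01. All of these passed the test. The macrophage marker Cd163 was listed at 0 in 8 libraries.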

How the data were processed

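Per the labels' protocols, the RNA came from an miRNeasy extraction and the libraries from a TruSeq stranded mRNA kit. The authors deposited 1 table of FPKM per gene symbol for each of the 12 libraries. TopHat2 2.1.1, Bowtie2, Cuffdiff 2.2.1 and the rn6 build are named in the submitters' processing notes. The sources used here do not give the annotation, the strand setting or any normalization between libraries, so overlapping or near-identical genes may share reads. Groups were taken from the treatment label, and 0 columns were left unused. FPKM were analysed as log2(FPKM + 1), a scale that understates changes of low genes. Genes that reached an FPKM of 1 in 3 or more libraries entered limma 3.58.1 in R 4.3.3, with 4 group means over all 12 libraries, 8 residual degrees of freedom and empirical Bayes moderation with a trend. Each test was 2-sided, with Benjamini and Hochberg adjustment over all 10518 genes within each of 5 comparisons; the script was tested on simulated data. An exact permutation test of 3 against 3 libraries cannot go below 0.1, so none is quoted.

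The members and all lists were chosen with earlier results of these data known. The genes given with values in every library were up to 3 per role with the smallest adjusted p in any comparison, and some others were added after their values were seen. From each list up to 2 called genes with the smallest adjusted p in stretch with control siRNA were named, and the 8 genes most like the mean profile; some of these are not reported here. For stretch with Wnt5a siRNA the deviations of same-numbered libraries correlated at 0.184, 0.242 and 0.143, so the numbers may pair the libraries there. In the other comparisons at least 1 of the 3 correlations was under 0.1. Values come from the fit without pairing unless the replicate block is named. With that block 4 genes were called lower with stretch under Wnt5a siRNA. The alternatives were another pseudocount, no filter or a stricter one, 3 scalings, a replicate block, no trend, a fit on the compared libraries alone, a minimum fold change and leaving out each library.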

Additional observations from a re-analysis of the deposited data

Results flagged for a closer look

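For 12 of the 41 genes limma's test of the difference itself, adjusted over all genes, called the stretch responses under the 2 siRNAs unlike. The values are the log2(FPKM + 1) change with stretch under Wnt5a siRNA minus that under control siRNA. Among helicase genes the difference was -0.69 ± 0.17 (SE, adjusted p = 0.0135) for Mcm3, -0.32 ± 0.10 (adjusted p = 0.0310) for Mcm7, -0.61 ± 0.20 (adjusted p = 0.0419) for Gins1 and -0.58 ± 0.17 (adjusted p = 0.0252) for Gins4. For the clamp loader subunit Rfc5 it was -0.59 ± 0.12 (adjusted p = 0.0064), and for the primase subunit Prim1 -0.71 ± 0.16 (adjusted p = 0.0091). The strand binding and ligation genes gave -0.50 ± 0.10 (adjusted p = 0.0057) for Rpa2, -0.59 ± 0.17 (adjusted p = 0.0264) for Fen1 and -0.36 ± 0.11 (adjusted p = 0.0408) for Lig1. Rrm2 gave -0.41 ± 0.12 (adjusted p = 0.0246) and Uhrf1 -0.81 ± 0.18 (adjusted p = 0.0092). Pola2 gave the one positive difference called, 0.60 ± 0.13 (adjusted p = 0.0080). Of 20 alternatives, the minimum fold change aside, the calls of Mcm7, Gins1, Gins4, Fen1, Lig1 and Rrm2 held in 12, 9, 15, 15, 8 and 13, and those of the other 6 genes held in all 20.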

How the results depend on the processing

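Of the 41 genes, the main analysis called 37 and 20 for Wnt5a siRNA, without and with stretch in that order, 12 and 5 for stretch, under control and Wnt5a siRNA in that order, and 12 for the interaction. With calls limited to changes of at least 1.5-fold in FPKM + 1 these were 21, 1, 2, 0 and 7, a stricter rule by construction. In that order, 4.16%, 4.64%, 9.75%, 2.99% and 7.21% of all genes were called higher under it, and 4.44%, 3.57%, 12.8%, 2.27% and 5.51% lower. With TPM scaling stretch with Wnt5a siRNA gave 15 and the interaction 6. Wnt5a siRNA with stretch gave 13 with no filter (8.87% of all genes called higher) and 6 in a fit of the libraries compared alone (5.51%). The interaction has no such fit. Leaving out 1 library at a time gave 6 to 24 calls for Wnt5a siRNA with stretch, 1 to 11 for stretch with Wnt5a siRNA and 6 to 15 for the interaction. The shares of all genes called also changed between these fits. With the replicate block the counts were 38, 17, 10, 4 and 12. In that order, 15%, 13.6%, 27.4%, 8.38% and 11.7% of all genes were called higher, and 14.4%, 14.2%, 26.8%, 7.72% and 12.7% lower. With that block Cdc45 was the one gene of the 5 that lost its call with stretch under Wnt5a siRNA. The stricter filter tested 36 of the 41 genes. The change of Mcm7 with stretch under control siRNA reversed under TPM scaling (-0.047). That of Pola2 with Wnt5a siRNA without stretch, 0.01, ranged from -0.022 to 0.063 when 1 library was left out, with negative values of -0.011, -0.016 and -0.022. For these shifts, other than those of the fold rule, the cause was not tested. Depth is unknown, so no counting error can be given, and precision is limited by 3 libraries a group.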
